A study of Mus musculus with 3 samples.

Results

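A group of 9 genes of γδ T cells and of cytotoxic lymphocytes was followed across thymocytes of 3 mouse genotypes: the γδ-associated genes Sox13, Blk and Maf, the granzyme genes Gzma, Gzmb and Gzmk, the granule genes Prf1 and Nkg7, and the receptor gene Cd160. They are 9 of the 19938 genes with a named probe set, and each has 1 probe set annotated to it alone. The list was chosen by differences on these same arrays, above all those between the TCF-1-deficient and the wild type array. The values that follow are therefore a description, and none of them is a test.

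The RNA came from whole thymocyte suspensions, the developing T cells of the thymus, on Affymetrix whole-transcript arrays. There was 1 array of TCF-1-deficient (TCF-1-/-) thymocytes from 8-week-old mice, 1 of β-catenin transgenic thymocytes at 16 weeks, and 1 of wild type (WT) thymocytes at 12 weeks. The labels name neither the promoter of the transgene, nor the TCF-1 allele, nor whether animals were pooled. With 1 array per genotype there is no replicate, no error and no p-value, so few arrays limit the precision throughout, and genotype and age cannot be told apart.

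Most thymocytes become αβ T cells and pass from a double-negative stage, without CD4 or CD8, to a double-positive stage with both. A minority branches off from the double-negative stage to become γδ T cells, which carry the other kind of T cell receptor. SOX13 and c-MAF are transcription factors of γδ thymocytes, c-MAF being required in mice for γδ cells that make interleukin-17, and BLK is a SRC family kinase of B cells and of such γδ cells. TCF-1 is a DNA-binding partner of β-catenin in the Wnt pathway, and SOX13 is known as an antagonist of Wnt signalling through TCF-1. Cytotoxic lymphocytes kill by releasing granules in which perforin, the product of Prf1, opens the way for granzymes, which are serine proteases.

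Each level is the deposited value on the log2 scale, and each difference subtracts the level on one array from that on another. A gene counts as higher or lower once the difference reaches 1, or 2-fold. The rule is one of size alone. A gene is called dim on an array where it lies below the median over named genes there, which was 6.91 on the TCF-1-deficient, 6.87 on the transgenic and 6.86 on the WT array. The size of a difference from a dim value is uncertain.

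The label of the tissue fitted its markers: Cd3e, a chain of the T cell receptor complex, was at 13.05, 13.34 and 13.42, and Cd8a, a chain of the CD8 co-receptor, at 11.48, 12.97 and 12.93 on the TCF-1-deficient, transgenic and WT arrays. The disrupted gene itself was not analysed here. The β-catenin gene, Ctnnb1, had levels of 11.16 on the TCF-1-deficient, 11.39 on the transgenic and 11.15 on the WT array, a transgenic difference from WT of 0.24 that lies within the range of 95% of all genes (-0.36 to 0.29). Whether its probes match the transgene is not stated, so neither altered genotype was checked by its own gene. Xist, transcribed from the inactive X of females, was at 12.17 on the TCF-1-deficient, 4.86 on the transgenic and 12.49 on the WT array. The Y-linked gene Uty was at 4.43, 8.81 and 4.20 on these arrays. Genotype and this sex-linked difference therefore also cannot be told apart in either comparison with the transgenic array.

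Of the 9 genes, 5 were higher on the TCF-1-deficient array than in WT by at least 2-fold, 0 were lower, and 4 lay within 2-fold. Over all 19938 genes, 1.33% were higher and 2.62% were lower by the same rule. The 5 were Blk, Maf, Gzma, Cd160 and Sox13, and their differences ran from 1.95 to 2.99 with a median of 2.65. The other 4, Gzmb, Gzmk, Prf1 and Nkg7, ran from -0.33 to 0.04. No member lay between these ranges, and the 5 were also the count at 1.5-fold (4.04% of all genes) and at 3-fold (0.537%). The list was chosen with this comparison known, so the share of members is not read against the share of all genes.

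On the β-catenin transgenic array 0 of the 9 genes were higher and 0 lower than on the WT array by at least 2-fold, beside 0.15% higher and 0.0953% lower over all genes. The differences ran from -0.41 for Gzma to 0.11 for Maf, with a median of -0.07, and 95% of all genes lay between -0.36 and 0.29 in that comparison. Gzma was thus the 1 member outside that range. Between the transgenic and the TCF-1-deficient array, 5 of the 9 were lower on the transgenic array and 0 higher, with 1.57% of all genes lower and 2.45% higher. The 3 comparisons share arrays pairwise and are not independent.

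**Figure D1:**
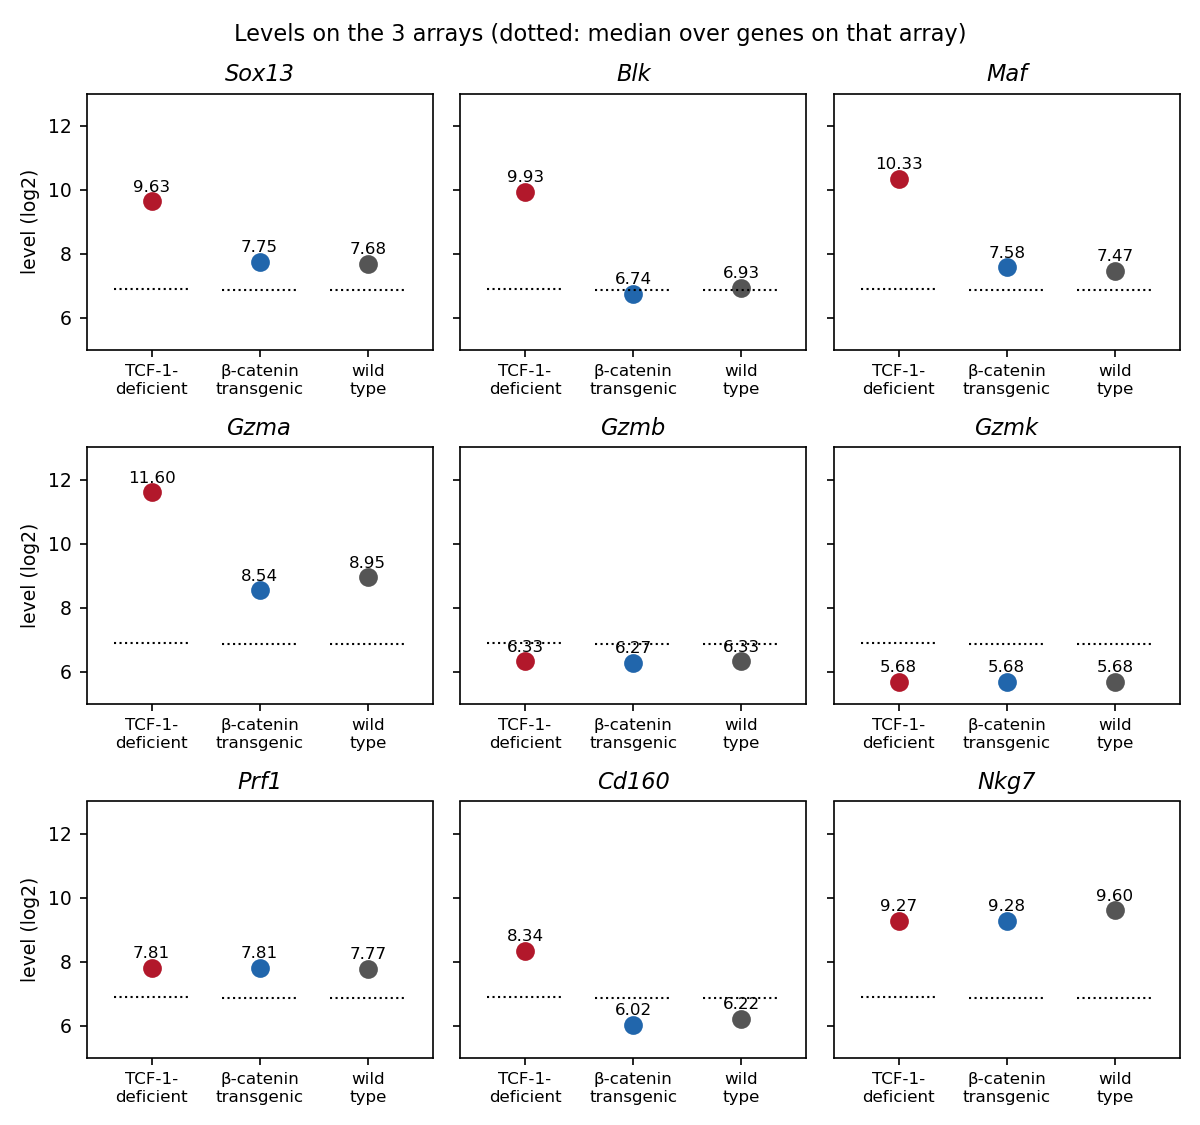
Levels of the 9 genes (vertical axis, log2 value) on the TCF-1-deficient, β-catenin transgenic and wild type arrays, 1 point per array, with a dotted line at the median over named genes on that array. Sox13, Blk, Maf, Gzma and Cd160 stand highest on the TCF-1-deficient array, while Gzmb and Gzmk lie below the dotted line on all 3 arrays.

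Among the transcription factors, Sox13 was at 9.63 on the TCF-1-deficient, 7.75 on the transgenic and 7.68 on the WT array. The TCF-1-deficient array was thus the high one, and the transgenic array differed from WT by 0.07. Its difference from WT was 1.95, or 3.87-fold, the 70th highest of 19938. Sox13 belongs to the SOXD group with Sox5 and Sox6, and these were within 2-fold of WT. Sox5 was at 6.92, 6.36 and 6.43 on the TCF-1-deficient, transgenic and WT arrays, and Sox6 was at 6.11 on each of them and dim throughout. Of the 7 other SOX genes listed, 0 passed 2-fold in either direction between the TCF-1-deficient and WT arrays, with a median of 0.10. Over all genes, 1.33% were higher and 2.62% lower. Sox4, an SRY-box factor that also acts in mouse γδ thymocytes making interleukin-17, was at 9.86, 10.19 and 10.15.

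Maf was at 10.33 on the TCF-1-deficient, 7.58 on the transgenic and 7.47 on the WT array. Again the TCF-1-deficient array alone was high. The difference from WT was 2.86, or 7.28-fold, and ranked 25th. None of the 5 other MAF family genes with a named probe set passed 2-fold in that comparison, with a median of 0.14. The shares of all genes were 1.33% higher and 2.62% lower. Next after Maf was Mafa, a MAF factor of pancreatic β cells, at 7.49, 7.19 and 6.90.

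Blk was at 9.93 on the TCF-1-deficient, 6.74 on the transgenic and 6.93 on the WT array. It was dim on the transgenic array and just above the median over genes on the WT array, so the 7.96-fold difference from WT (2.99, rank 22) and the 9.11-fold difference between the transgenic and TCF-1-deficient arrays (-3.19) are uncertain in size. Of the other 5 SRC family kinases with a named probe set, 0 passed 2-fold between the TCF-1-deficient and WT arrays. Over all genes, 1.33% were higher and 2.62% lower. Fyn, which signals at the T cell receptor, was at 10.63, 10.18 and 9.97 on the TCF-1-deficient, transgenic and WT arrays, and Src was at 7.10 on all 3.

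B cells also express Blk, and part of the B cell markers moved with it on the TCF-1-deficient array. Of the 10 B cell markers with a named probe set, 5 were higher on the TCF-1-deficient array than in WT by at least 2-fold. Of them 0 were lower, and the shares of all genes were 1.33% higher and 2.62% lower. The 10 markers had a median of 1.03. Their levels, each taken as 2 to the power of the log2 value and summed, came to 3520 on the TCF-1-deficient, 1966 on the transgenic and 1647 on the WT array. Cd79a, which encodes an antigen receptor chain, was at 9.52, 7.96 and 6.99, and Ms4a1, which encodes CD20, at 7.77, 6.50 and 6.13. Cd79b, dim on none, was at 10.06, 9.74 and 9.61, a difference from WT of 0.45 without TCF-1. Blnk, an adaptor of the antigen receptor, was dim on every array, and Pax5, the B lineage factor, was higher by 0.75. Ms4a1, Bank1, Cd22, Ebf1 and Pax5 were dim on the transgenic and WT arrays, so the sizes of their differences are uncertain. On the transgenic array the 10 B cell markers had a median difference from WT of 0.11, and 0 passed 2-fold. In that comparison 0.15% of all genes were higher and 0.0953% lower. The 10 markers ranged from -0.07 for Blnk to 0.97 for Cd79a, and Blk differed by -0.20. The part of B cells in the Blk value was not tested. In whole suspensions a larger share of a cell type and more RNA per cell cannot be told apart, for this and every gene here.

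Of the 10 granzyme genes, Gzma alone passed 2-fold between the TCF-1-deficient and WT arrays. Of all genes, 1.33% were higher and 2.62% lower there. Granzyme A is a tryptase-like protease of killer cells, and its gene was at 11.60 on the TCF-1-deficient, 8.54 on the transgenic and 8.95 on the WT array. The TCF-1-deficient array was the high one and the transgenic array the low one. The difference from WT was 2.65, or 6.27-fold (rank 33), and the transgenic array was lower than the TCF-1-deficient array by 8.34-fold. Gzmb, which encodes the caspase-activating granzyme B, was at 6.33, 6.27 and 6.33. Gzmk, which encodes granzyme K, another tryptase-like protease, was at 5.68 on all 3 arrays. Both were dim on every array, so their flat values do not show that the RNA was at one level. Of the 10 granzyme genes of the list, 9 were dim on every array, and the 7 that are not among the 9 genes described here included 0 past 2-fold.

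Identical values need care in these data. Gzmk was listed with exactly equal values on the 3 arrays, as were 33.6% of all genes and 53.1% of the 9531 genes dim on every array. Gzmb was identical between the TCF-1-deficient and WT arrays, and Prf1 between the TCF-1-deficient and transgenic arrays, which held for 36.4% and 41.0% of all genes. A difference of exactly 0 is therefore common in the table and is not a measured equality. Among genes that were not dim on at least 1 array, 15.9% were identical on all 3.

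Gzma and Gzmk are neighbours on mouse chromosome 13, with no other named gene of the table between them, and they had unlike readouts. The 250 bases before each start are shown for that reason, together with the window of Cd160 that held the searched letters. They are RefSeq's sequences on GRCm38.p6, all on the minus strand, at chr13:113100982-113101231 for Gzma, chr13:113180966-113181215 for Gzmk and chr3:96814522-96814771 for the first of the Cd160 windows. Each runs 5′ to 3′ toward the start, and capitals mark the letters TCAAAG or their reverse complement CTTTGA, the core of the element that TCF and LEF proteins bind.
Gzma: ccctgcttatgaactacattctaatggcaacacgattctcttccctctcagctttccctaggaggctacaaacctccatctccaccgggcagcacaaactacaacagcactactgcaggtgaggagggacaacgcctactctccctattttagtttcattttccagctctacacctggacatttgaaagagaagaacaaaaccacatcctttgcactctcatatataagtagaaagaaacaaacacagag
Gzmk: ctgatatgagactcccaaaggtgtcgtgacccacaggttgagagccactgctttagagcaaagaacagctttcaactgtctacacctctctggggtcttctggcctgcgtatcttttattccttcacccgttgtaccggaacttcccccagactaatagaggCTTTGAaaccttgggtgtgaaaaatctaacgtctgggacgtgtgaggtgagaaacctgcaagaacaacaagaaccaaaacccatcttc
Cd160: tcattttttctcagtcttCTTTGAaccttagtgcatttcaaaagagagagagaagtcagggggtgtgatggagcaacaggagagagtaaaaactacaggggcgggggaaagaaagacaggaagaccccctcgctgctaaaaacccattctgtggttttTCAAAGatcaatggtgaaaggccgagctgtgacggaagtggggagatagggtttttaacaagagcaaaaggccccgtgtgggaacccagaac

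Of the 9 genes, 7 had a window in the RefSeq table, with 8 windows in all, since Cd160 has 2. The letters were found in 2 of the 8 windows, against 13.8% of the 32851 windows of the table. The Gzmk window held 1 match and this Cd160 window held 2, at positions -232 and -92 from the start. The windows of Gzma, Sox13, Gzmb, Prf1 and Nkg7 and the second of Cd160 held 0. The letters occurred before Cd160, which was higher without TCF-1, and before Gzmk, whose value was the same on all arrays. They were not found before Gzma or Sox13. Blk and Maf, with the largest differences from WT without TCF-1 (2.99 and 2.86), had no window and could not be searched. A match is a description of these letters, not a site, and an absence says nothing beyond these 250 bases.

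The genes beside the members were also read. The rule took the 2 nearest named genes on each side in the GRCm38.p6 gene order, and was set after the members' values were known. Over all genes, 1.33% were higher on the TCF-1-deficient array than in WT by at least 2-fold and 2.62% lower. Of 32 such neighbours that are not members, 2 were higher by this size and 0 lower, with a median of 0.015. The 2 were Fam167a, next to Blk, at 8.16, 6.60 and 6.92 on the TCF-1-deficient, transgenic and WT arrays, and Esm1, a secreted proteoglycan of endothelium that lies beyond Gzmk, at 7.02, 5.85 and 5.81. Fam167a was dim on the transgenic array, and Esm1 on the transgenic and WT arrays. Gata4, on the other side of Blk, was at 6.64 on all 3, and Wwox, next to Maf, at 8.17 on all 3.

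Cd160 encodes a membrane receptor of intestinal and cytotoxic lymphocytes that binds HVEM. It was at 8.34 on the TCF-1-deficient, 6.02 on the transgenic and 6.22 on the WT array. It was dim on the transgenic and WT arrays, so its 4.35-fold difference from WT (2.12, rank 57) is uncertain in size. Tnfrsf14, which encodes HVEM, was at 8.79, 8.80 and 9.15. Btla, another receptor for HVEM, was at 8.56, 7.20 and 7.57, a difference from WT of 0.98 and thus just under 2-fold without TCF-1. Of the 6 partners and relatives other than Cd160, 0 passed 2-fold between the TCF-1-deficient and WT arrays, with a median of -0.18. The shares of all genes were 1.33% higher and 2.62% lower. Hcst (-0.75), Klrk1 (-0.64) and Tnfrsf14 (-0.36) were lower than in WT. Tyrobp was higher by 0.27, and Cd244a was identical. Klrk1 and Cd244a were dim on every array.

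Unlike Gzma, the granule genes Prf1 and Nkg7 lay within 2-fold of WT. Prf1 was at 7.81 on the TCF-1-deficient, 7.81 on the transgenic and 7.77 on the WT array, and was dim on none. Nkg7, a granule membrane protein needed for degranulation in mice, was at 9.27, 9.28 and 9.60, so that both altered genotypes lay below WT, with differences of -0.33 and -0.32. Nkg7 differed by 0.01 between the transgenic and TCF-1-deficient arrays. Over the 13 other genes of granule content and secretion, the median difference of the TCF-1-deficient array from WT was -0.04. By the 2-fold rule 0 were higher and 1 lower, beside 1.33% and 2.62% of all genes. The lower one was Lyst, which regulates the size of lysosome-related granules, at 9.44, 10.39 and 10.72. Serpinb6b, a serpin that inhibits mouse granzyme A, was at 9.41, 8.39 and 8.51, a difference of 0.90. Srgn, the proteoglycan that holds granzymes in the granule, was at 12.76, 13.08 and 13.05, and Unc13d, a priming factor of granule release, was at 8.89 on all 3.

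**Figure D2:**
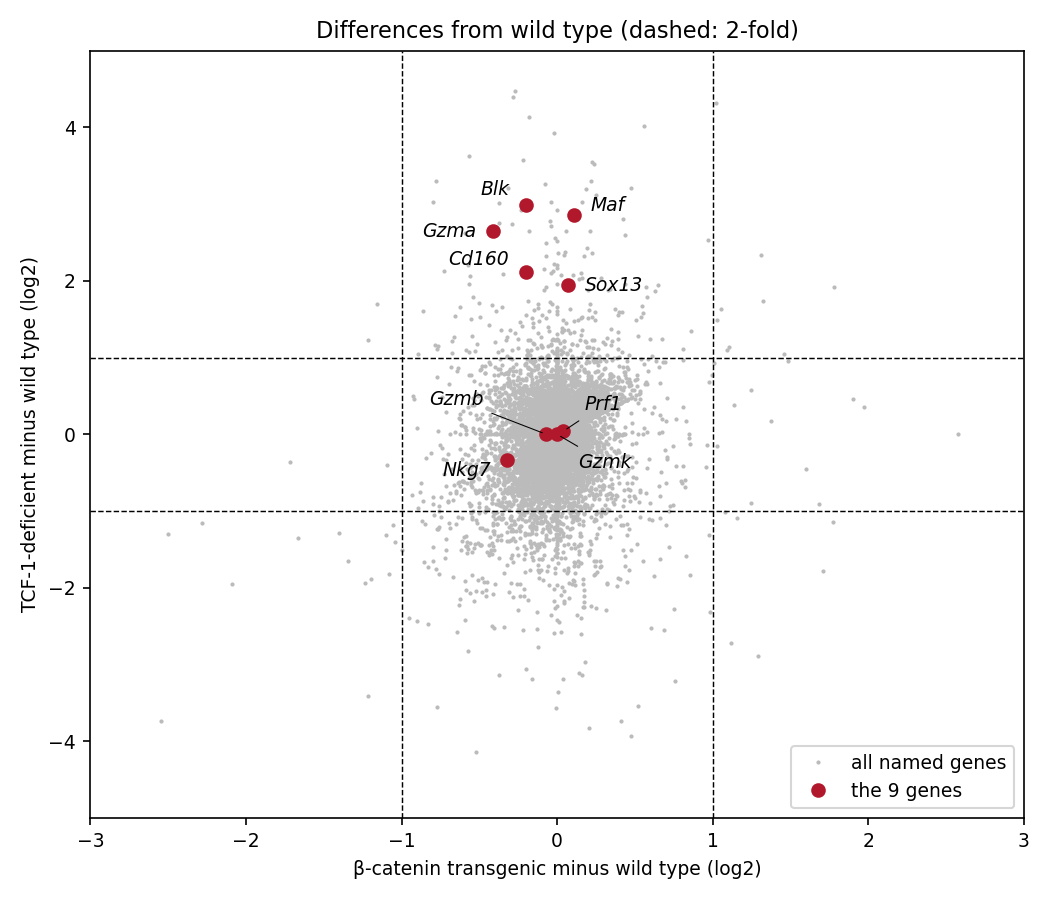
Each point is a named gene, by its difference from wild type on the β-catenin transgenic array (horizontal axis, log2) and on the TCF-1-deficient array (vertical axis, log2), with dashed lines at 2-fold. The 9 genes are red, 4 other genes fall outside the plotted range, and the 5 genes past 2-fold without TCF-1 lie high and near the vertical midline, from -0.41 to 0.11 on the transgenic array.

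The regulators of cytotoxic cells gave a mixed picture. Of 19 listed regulators and effectors, 9 were dim on every array and 9 were identical between the TCF-1-deficient and WT arrays. Between those arrays 1 was higher without TCF-1 and 0 were lower, beside 1.33% and 2.62% of all genes. The higher was Cst7, which encodes cystatin F, an inhibitor of granule cathepsins, at 8.56, 6.87 and 7.45 on the TCF-1-deficient, transgenic and WT arrays. Runx3, a factor of CD8 T cells, was at 10.23 on the TCF-1-deficient and 9.38 on the WT array, with the transgenic array below both (-0.38 from WT). Id2, an inhibitor of E proteins in innate lymphocytes, was at 11.16, 9.89 and 10.36. Both differed from WT by less than 2-fold, by 0.85 and 0.80. Tbx21, which encodes T-bet, was at 6.97, 7.36 and 7.48, and Eomes and Ifng were dim and identical on all 3. Between the transgenic and TCF-1-deficient arrays, 4 of the 19 were lower on the transgenic array and 0 higher, beside 1.57% and 2.45% of all genes. The 4 were Cst7 (-1.69), Ikzf2, a factor of the Ikaros family (-1.52), Id2 (-1.27) and Runx3 (-1.23). Cst7 was dim on the transgenic array, so the size of its difference is uncertain.

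Of 27 listed genes of the γδ lineage, 20 had a named probe set. Of these, 6 were higher on the TCF-1-deficient array than in WT, 0 lower, and the median was 0.19 against 0 over all genes. The shares of all genes were 1.33% higher and 2.62% lower. Without Sox13, Blk and Maf, 3 of 17 were higher, with a median of 0.02. The 3 were Etv5, an ETS factor of γδ cells that make interleukin-17, Ptcra, the pre-TCR α chain of the αβ lineage, and Il23r, the interleukin-23 receptor. Etv5 was at 10.31 on the TCF-1-deficient, 7.38 on the transgenic and 7.38 on the WT array. Il23r was at 6.46, 5.80 and 5.38 and was dim on every array. Il17a, Il17f and Ccr6, products or markers of interleukin-17 cells, were dim on every array, with differences from WT of 0.02, 0.12 and 0.32, and Zbtb16, the factor PLZF of innate-like T cells, was identical on all 3. Cd27, lost by γδ cells that make interleukin-17, was at 11.52, 12.37 and 12.11. On the transgenic array 0 of the 20 passed 2-fold against WT, beside 0.15% higher and 0.0953% lower over all genes.

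**Figure D3:**
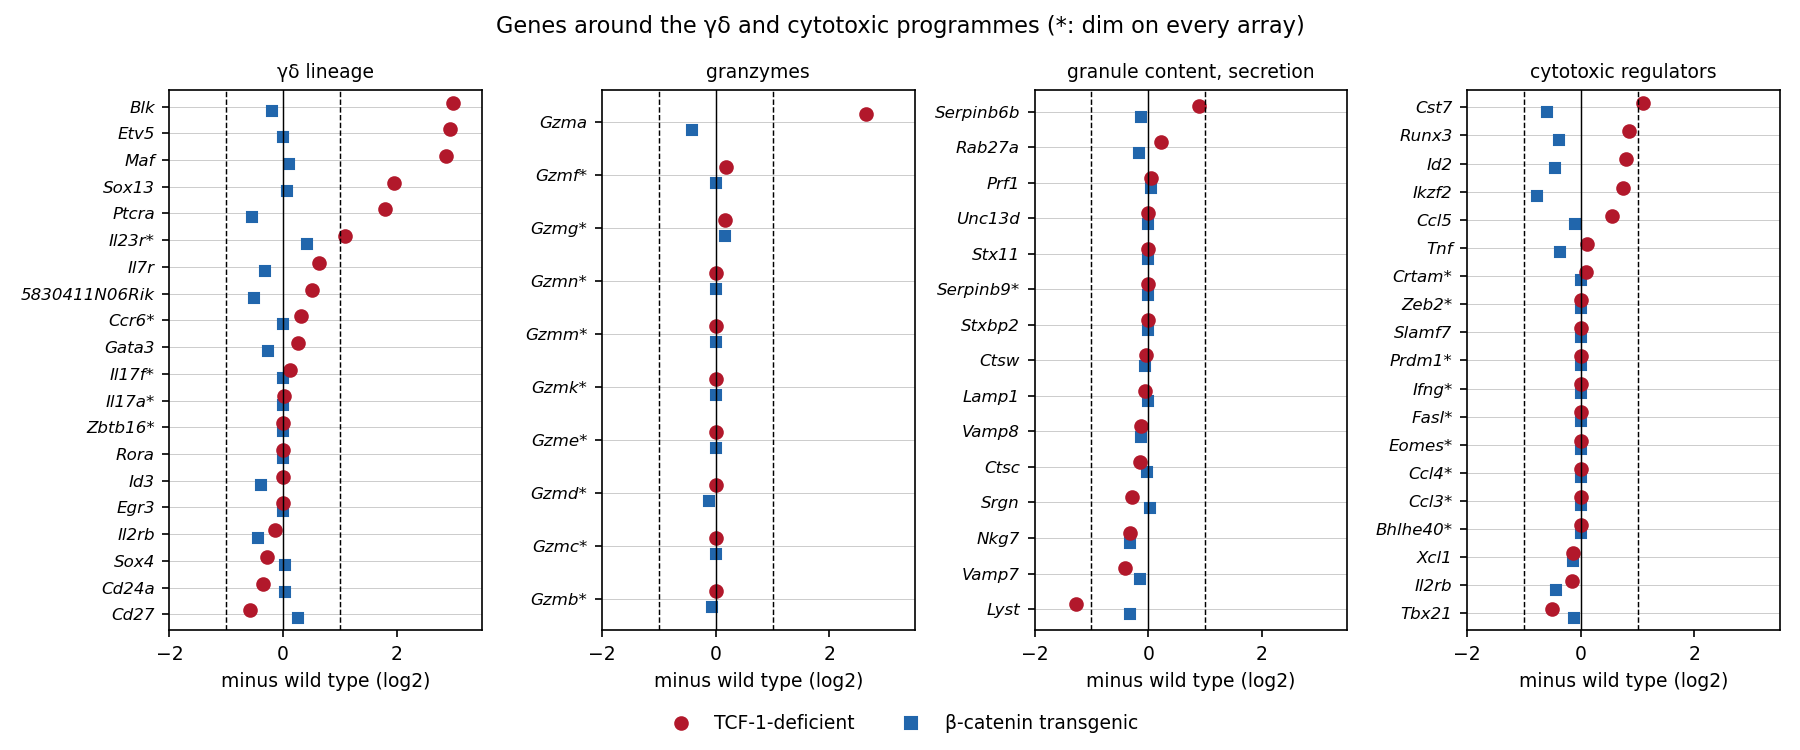
Differences from wild type (horizontal axes, log2) of the TCF-1-deficient array (red circles) and the β-catenin transgenic array (blue squares) for 4 gene lists, with dashed lines at 2-fold and an asterisk on genes dim on every array. On the TCF-1-deficient array Blk, Etv5, Maf, Sox13 and Gzma lie near or beyond 2, while Gzmb, Gzmk and Prf1 lie near 0 on both arrays.

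The γδ T cell receptor itself was covered by 1 of 10 listed segments. Trgv1, a variable segment of the γ chain, was at 12.04 on the TCF-1-deficient, 9.17 on the transgenic and 9.90 on the WT array, a difference from WT of 2.13 without TCF-1 and of -0.73 with the transgene. Related γ segments can share probe signal, and thymocytes of the αβ lineage also rearrange γ genes, so this value does not count γδ cells. The other 9 segments were not analysed here.

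Markers of other cytotoxic or innate cells were mostly dim or within 2-fold. Between the TCF-1-deficient and WT arrays, 1.33% of all genes were higher and 2.62% lower by that rule. Of 10 NK cell markers with a named probe set, 0 were higher and 1, Klrb1c, was lower without TCF-1 than in WT. Klrb1c was at 4.70 on the TCF-1-deficient, 5.85 on the transgenic and 5.76 on the WT array. It was dim on every array, so the size of its difference is uncertain. In all, 8 of the 10 were dim on every array, Ncr1, Klre1, Klra8, Eomes and Klrg1 also among them. The summed level of the 10 was 713 on the TCF-1-deficient, 680 on the transgenic and 678 on the WT array. Tyrobp (7.65, 7.45 and 7.37) and Fcer1g (7.85, 7.63 and 7.63) were dim on none. With 8 of 10 markers dim, this sum does not show whether NK cells differed. Of 6 markers of innate-like T cells 0 were higher and 1, Klrb1c again, lower, with sums of 1104, 944 and 1150. Of 6 markers of mature CD8 T cells 0 were higher and 2, Cd8b1 and Cd8a, lower, with sums of 7900, 20417 and 20860. Both are also double-positive markers, while Runx3 differed from WT by 0.85, Klf2 by 0.38 and S1pr1 by -0.25, and Ccr7 was just within 2-fold, at 9.08 on the TCF-1-deficient and 10.08 on the WT array. Of 8 myeloid markers 1, Lyz2, was higher by 1.12, with sums of 1265, 1092 and 939, and 5 were dim on every array.

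Markers of thymocyte stage did move with the 5 genes. Of 7 double-negative markers, 6 were higher on the TCF-1-deficient array than in WT and 0 lower, with a median of 1.79. Their sums were 19162 on the TCF-1-deficient, 3350 on the transgenic and 5010 on the WT array. The exception was Kit, at 7.31, 7.03 and 7.10 on these arrays, a difference from WT of 0.21 without TCF-1. All 6 double-positive markers were lower, with a median of -1.70 and sums of 10233, 42014 and 39320. The shares of all genes were 1.33% higher and 2.62% lower. None of these 13 markers was dim on every array. Hes1, above WT by 2.74, was dim on the transgenic and WT arrays, so the size of its difference is uncertain. Cd4 was at 9.13, 13.29 and 12.87, and Il2ra, the interleukin-2 receptor α chain of double-negative cells, at 12.50, 9.88 and 10.44. The part of any difference in stage in these marker levels, and in the values of Sox13, Blk, Maf, Gzma and Cd160, was not tested. On the transgenic array the double-negative markers had a median of -0.54 and the double-positive markers of 0.07, and 0 of either passed 2-fold. In that comparison 0.15% of all genes were higher and 0.0953% lower.

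**Figure D4:**
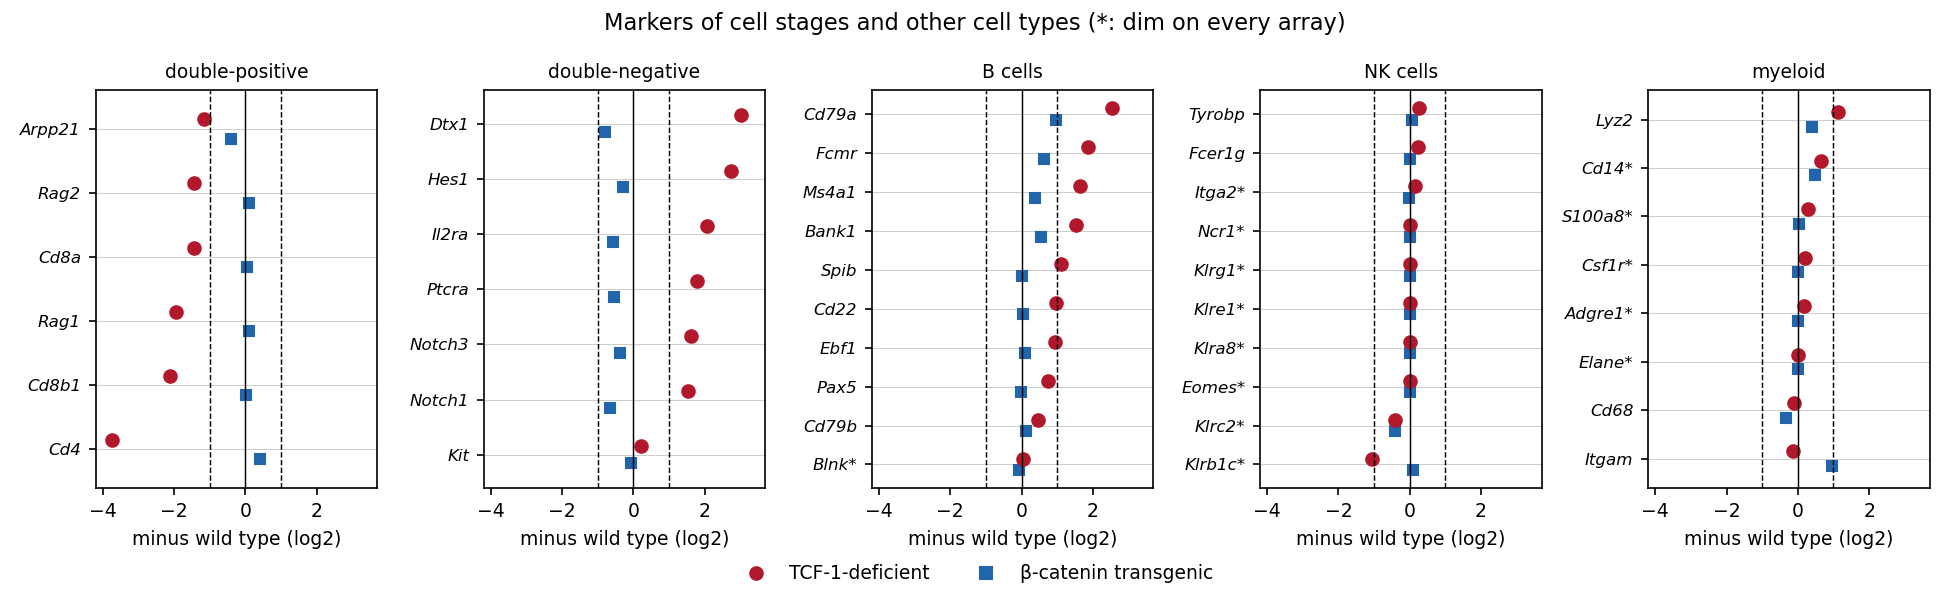
Differences from wild type (horizontal axes, log2) of the TCF-1-deficient array (red circles) and the β-catenin transgenic array (blue squares) for markers of 2 thymocyte stages and 3 other cell types, with dashed lines at 2-fold and an asterisk on genes dim on every array. On the TCF-1-deficient array the 6 double-positive markers lie below -1 and 6 of 7 double-negative and 5 of 10 B cell markers above 1, while 8 of 10 NK cell markers are dim.

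Genes with the most similar pattern were sought for each of the 5, by the distance between the pairs of differences from WT, among at least 9529 genes whose mean level reached the median. With 3 arrays many genes lie close by this measure, and the names are a description only. Nearest to Sox13 were Pde2a, a phosphodiesterase (distance 0.073), Bag3, a co-chaperone, and Ptgfrn, a tetraspanin partner. Nearest to Blk were Cpa3, a mast cell carboxypeptidase (0.078), Etv5 and Coro2a. Etv5 was also nearest to Maf (0.127), followed by Wdr25 and Cd163l1. Cd163l1 carries the older name Scart1 in the gene table, a scavenger receptor of γδ T cells in mice, with levels of 10.13 on the TCF-1-deficient, 7.26 on the transgenic and 7.10 on the WT array. Its relative Scart2, listed as 5830411N06Rik, was at 7.65, 6.65 and 7.15, a difference from WT of 0.50. Nearest to Gzma were Hes1, a repressor induced by Notch (0.15), Prag1 and Adam19, a metalloprotease, and nearest to Cd160 were Bcl2l14, Plac8 and Agfg1. Hes1 was at 9.55, 6.53 and 6.82, dim on the transgenic and WT arrays, and Plac8 was at 10.40, 7.97 and 8.32.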

How the data were processed

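Total RNA of thymocytes was measured on 3 arrays, 1 per genotype. The authors used RMA and Partek, per the submitters' processing notes. RMA yields log2 values, which the deposited range of 1.73 to 14.8 allows, although the log base is in no header. Versions, settings and the genome build: not given in the sources used here. This normalisation was kept as deposited.

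Of 35556 probe sets, 21789 have 1 gene symbol in the platform annotation, 1621 have several and were not used, and 12146 are unnamed here. Those with 1 symbol stand for 19938 genes. For the 999 genes with several probe sets, the one with the highest mean was taken. Columns of other samples numbered 0.

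The 9 members, all gene lists and the naming rule were chosen with earlier results of these data known. The rule names every member, the 3 genes nearest to each member past 2-fold (leaving out predicted, clone-named, microRNA, small nucleolar and olfactory or vomeronasal genes), and up to 6 genes per list, those with the largest differences without TCF-1. Outside the rule, these were picked with their values in view: Il17a, Il17f, Ccr6, Cd27, 5830411N06Rik, Unc13d, Sox6, Eomes, Ifng, Cd244a, Klre1, Klra8, Klrg1, Pax5, Blnk, Cd79b, Ebf1, Kit, Cd3e, Ctnnb1, Xist and Uty, and the neighbouring genes Fam167a, Esm1, Gata4 and Wwox. No test was run, since each genotype has 1 array. Python 3.11.15, pandas 2.3.3, NumPy 2.4.6, statsmodels 0.14.6 and matplotlib 3.10.9 were used.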

Additional observations from a re-analysis of the deposited data

How the results depend on the processing

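The alternatives were size rules of 1.5-fold and 3-fold, centring of the arrays on their probe set medians, a loess correction for intensity (span 0.3), the mean over the probe sets of a gene, and leaving out genes dim on every array. The last 2 could not change the calls of the 9 genes, each of which has 1 probe set and of which only the uncalled Gzmb and Gzmk were dim on every array. Under the size rules, centring and loess, the 5 genes higher without TCF-1 numbered 5, and the counts in the other comparisons were the same. Each of the 9 genes kept its side of the 2-fold rule in all 3 comparisons. Because no member lay between 0.04 and 1.95 without TCF-1, the 1.5-fold and 3-fold rules could not change that count. The shifts by centring and loess were small beside this gap, so the unchanged counts add no support. Centring moved the median over genes by 0.13 for the TCF-1-deficient and 0.08 for the transgenic array against WT. Under it the median over the 9 genes was 2.08 without TCF-1, and that of the transgenic array against WT was 0.01 in place of -0.07, so the sign of that small median depends on the scaling. Loess gave 1.98 and -0.07. No paired analysis was possible because each genotype has 1 array. For the same reason no array could be left out. Signal over background was not given, so a dim gene such as Gzmk may be unmeasured.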
